A study of Mus musculus with 36 samples.

Results

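Gene expression was compared between MLL3-/-;MLL4-/- and MLL3-/-;MLL4flox/flox cells at day 20 of reprogramming. The 2 RNA-seq libraries were chosen by their labels from the 36 samples of the series, 12 of which measured RNA. DKO is used below for the library labelled MLL3-/-;MLL4-/-, and f/f for the library labelled MLL3-/-;MLL4flox/flox. Both came from immortalised mouse embryonic fibroblasts that were infected with lentiviruses carrying Oct4, Sox, Klf4 and c-Myc, moved to ESC medium with serum and LIF after infection, and collected as day-20 cells. Both lacked MLL3, so the comparison is of MLL4 loss in cells that already had no MLL3. The Sox factor is named in the labels without its number. How MLL4 was deleted, how many fibroblast lines were used, and whether colonies were picked or cells sorted is not given in the sources used here. Each genotype had 1 library at this stage, so every difference below is a size with no replicate check, no SD and no p-value. Of 24284 genes in the deposited tables, the 12395 with a mean of at least 1 FPKM (fragments per kilobase of gene, scaled to the mapped fragments of the library) over the 2 libraries were compared.

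MLL3 (gene Kmt2c) and MLL4 (gene Kmt2d) are histone H3 lysine 4 methyltransferases that place the mono-methyl mark at enhancers and help to switch on cell-type genes when a cell changes identity. Reprogramming with Oct4, Sox2, Klf4 and c-Myc makes fibroblasts lose mesenchymal genes, gain epithelial genes and, in a minority of cells, restart the endogenous pluripotency genes. The comparison asks how far cells without MLL4 went along that path. Fibroblast, ESC and day-4 embryoid body libraries of both genotypes, counted the same way, served as points of comparison, with 1 library per genotype and stage. ESC and embryoid bodies had 2 RNA libraries per genotype, and replicate 2 of each was taken, since replicate 1 was deposited in another kind of table.

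Depth, recovered from the steps of the FPKM values, was 23413352 reads in DKO and 25014405 reads in f/f cells at day 20, and 11366199 to 38264157 reads in the other 6 libraries. Kmt2d stood at 24.8 FPKM in DKO against 12.9 FPKM in f/f cells, and at 23.5 FPKM in DKO and 14.4 FPKM in f/f fibroblasts. Both DKO levels were thus the higher ones, which is opposite to a loss of the RNA, but a value over the whole gene does not isolate its deleted part and checks neither label. Kmt2c stood at 2.89 FPKM in DKO and 2.81 FPKM in f/f cells. The Y-linked genes Ddx3y, Eif2s3y, Kdm5d and Uty were all lower in DKO at day 20, and Ddx3y stood at 0.138 FPKM in DKO against 24.5 FPKM in f/f cells and at 1.11 FPKM in DKO and 8.25 FPKM in f/f fibroblasts. Xist, the noncoding RNA of X inactivation, stood at 0.117 FPKM in DKO and 1.54 FPKM in f/f cells. The part of these sex-linked differences, and of cell line differences other than MLL4, in the results below was not tested. Across 12970 genes with a mean of at least 1 FPKM over the 8 libraries, levels on the log2(FPKM + 1) scale had Pearson correlations of 0.956 between DKO day-20 cells and DKO fibroblasts, and of 0.918 between f/f day-20 cells and f/f fibroblasts. The DKO and f/f day-20 libraries had a correlation of 0.872 with each other. With DKO and f/f ESC, the correlations were 0.698 and 0.668 for DKO day-20 cells, and 0.687 and 0.656 for f/f day-20 cells. The fibroblast libraries had correlations of 0.687 to 0.732 with the ESC libraries. Each day-20 library thus had a lower correlation with either ESC library than the fibroblasts of its genotype. These correlations are across genes of single libraries and describe likeness only.

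The label iPSC was checked against pluripotency genes. Pou5f1, which encodes Oct4, stood at 0.118 FPKM in DKO against 19.8 FPKM in f/f cells at day 20, at 0.0906 FPKM in DKO and 0.12 FPKM in f/f fibroblasts, and at 515 FPKM in DKO and 650.4 FPKM in f/f ESC. The f/f day-20 level lay above both fibroblast levels and far below both ESC levels, while the DKO day-20 level lay with the fibroblasts. Sox2 stood at 0.243 FPKM in DKO against 9.36 FPKM in f/f cells, and at 214 FPKM in DKO and 224 FPKM in f/f ESC. Dppa5a, an RNA-binding protein gene of naive stem cells, stood at 0.401 FPKM in DKO against 4.07 FPKM in f/f cells, was listed at 0 in both fibroblast libraries, and stood at 559 FPKM in DKO and 1975 FPKM in f/f ESC. Zfp42 (Rex1), a marker of naive pluripotency, was listed at 0 in DKO and at 0.0666 FPKM in f/f day-20 cells, against 352 FPKM in DKO and 348 FPKM in f/f ESC. Nanog, the homeobox gene of ground-state pluripotency, stood at 9.68 FPKM in DKO and 5.49 FPKM in f/f cells at day 20, close to the 7.17 FPKM in DKO and 7.26 FPKM in f/f fibroblasts. By these genes neither day-20 library resembled ESC, and both are called day-20 cells rather than iPSC below. In bulk RNA, fewer cells of a type and less RNA per cell cannot be told apart, and virus-derived and endogenous factor transcripts cannot be told apart in these tables.

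**Figure D1:**
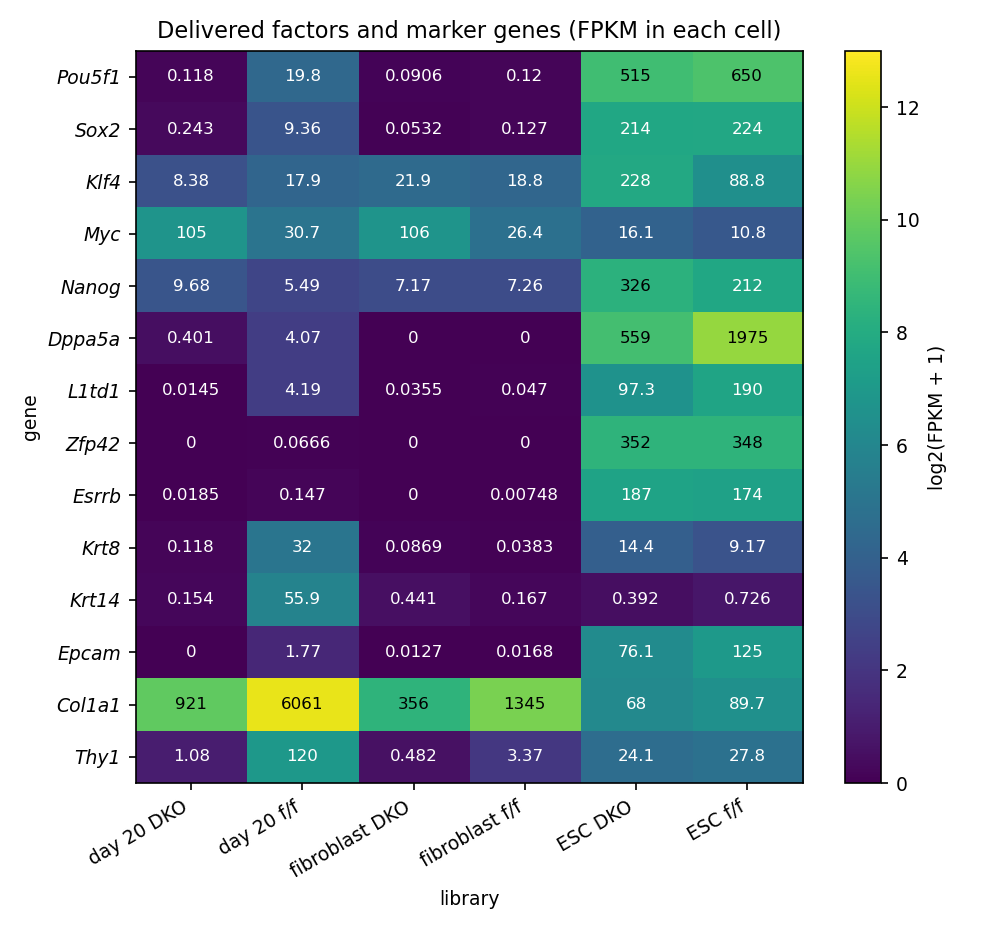
Levels (FPKM, printed in each cell; colour is log2(FPKM + 1)) of the delivered factors, pluripotency, epithelial and fibroblast genes in DKO and f/f libraries of day-20 cells, fibroblasts and ESC, 1 library per column. Pou5f1, Sox2, Dppa5a, L1td1, Krt8 and Krt14 are above 4 FPKM in f/f and below 1 FPKM in DKO day-20 cells, while Zfp42 and Esrrb are below 1 FPKM in both.

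More genes were past 2-fold at day 20 than at the other stages. On the log2 scale of (DKO + 1) over (f/f + 1), 1043 of 12395 genes (8.41%) were at least 2-fold higher in DKO and 1398 (11.3%) at least 2-fold lower, 19.7% in all. The median difference was 0.04, so the libraries were centred alike. At least 4-fold differences were found in 161 genes that were higher and 438 that were lower, and at least 16-fold differences in 7 and 83 genes. The fibroblasts had 461 of 11970 genes (3.85%) past 2-fold higher and 633 (5.29%) lower in DKO, or 9.14% in all. The share was 5.5% in ESC and 6.68% in embryoid bodies. The split between day-20 genes higher in DKO and day-20 genes lower in DKO depends on the minimum level. With a mean of at least 5 FPKM, 790 were higher and 778 lower. With at least 1 FPKM required in both libraries, a limit chosen after seeing the data, 883 were higher and 824 lower, but this limit removes the genes near 0 in either library and so had to lower the second count most. The number of genes at 1 FPKM or above was 11815 in DKO and 12474 in f/f cells, and 296 genes reached 1 FPKM in DKO alone against 753 in f/f alone. The gene lists described below are read against the shares of all compared genes, 8.41% higher and 11.3% lower. A member that passed the minimum mean only through the library where it was high had to differ. For several lists with such members the number at 1 FPKM or above in both libraries is given. The counts of other lists can include such members.

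**Figure D2:**
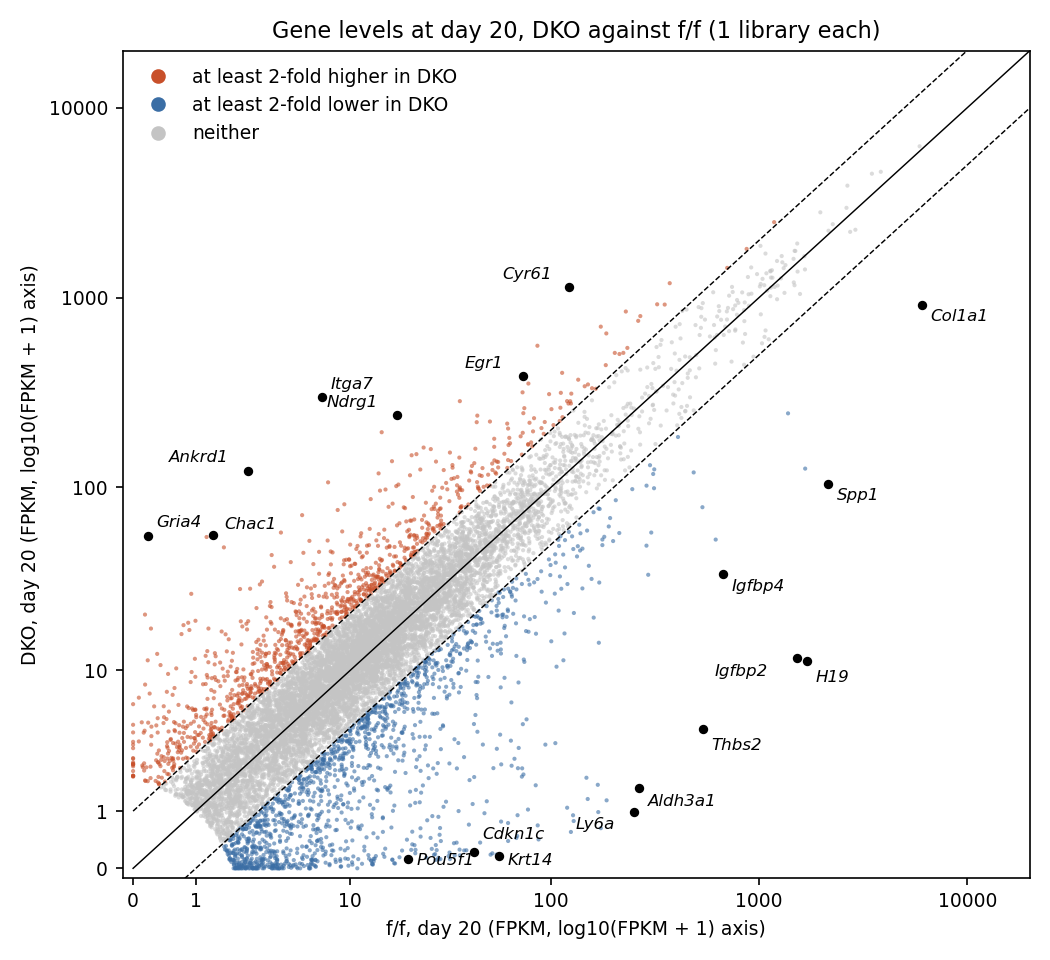
Level of each of 12395 compared genes in DKO (vertical) and f/f (horizontal) day-20 cells, FPKM on log10(FPKM + 1) axes, 1 library each; the solid line marks equal levels and the dashed lines a 2-fold difference on the (FPKM + 1) scale. The 1398 genes at least 2-fold lower in DKO reach further from the line than the 1043 higher ones, with H19 and Igfbp2 at the lower right and Gria4, Itga7 and Ankrd1 at the upper left.

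The 15 genes furthest below f/f in DKO were led by H19, Ly6a, Igfbp2 and Msln. H19, an imprinted noncoding RNA abundant in fetal tissues, stood at 11.3 FPKM in DKO against 1712 FPKM in f/f cells, a log2 difference of -7.13. Igfbp2, a secreted binding protein of insulin-like growth factors, stood at 11.8 FPKM in DKO against 1532 FPKM in f/f cells, 129.7-fold lower in DKO (95% counting interval 117 to 144). Counting intervals here and below cover counting error only, not the spread between cultures. Ly6a (Sca-1), a surface antigen of mesenchymal and progenitor cells, stood at 0.98 FPKM in DKO against 252 FPKM in f/f cells. Thbs2, a matricellular thrombospondin, stood at 4.39 FPKM in DKO against 539 FPKM in f/f cells, 123-fold lower in DKO (95% counting interval 113 to 133). Lum, the matrix proteoglycan lumican, stood at 1.75 FPKM in DKO against 168 FPKM in f/f cells (-5.94 on the log2 scale). Thy1, a surface glycoprotein of fibroblasts that falls early in reprogramming, stood at 1.08 FPKM in DKO against 119.7 FPKM in f/f cells (-5.86). Aqp1, a water channel, stood at 1.32 FPKM in DKO against 150.4 FPKM in f/f cells (-6.03). Prelp, another leucine-rich matrix protein, stood at 0.901 FPKM in DKO against 128 FPKM in f/f cells (-6.08). Over the 15 genes, DKO levels ran between 0.419 and 11.8 FPKM and f/f levels between 87.0 and 1712 FPKM. In fibroblasts, Thy1 stood at 0.482 FPKM in DKO and 3.37 FPKM in f/f fibroblasts, and Lum at 2 FPKM in DKO and 52.7 FPKM in f/f fibroblasts, so the f/f day-20 library held the highest level of both among these 4 libraries.

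Among the same 15 genes, Aldh3a1, the aldehyde dehydrogenase of corneal epithelium, stood at 1.66 FPKM in DKO against 267 FPKM in f/f cells (-6.66). Msln, the mesothelial surface protein mesothelin, stood at 0.626 FPKM in DKO against 174 FPKM in f/f cells, 278-fold lower in DKO (95% counting interval 196 to 409). Slurp1, a secreted protein of keratinocytes, stood at 0.976 FPKM in DKO against 169 FPKM in f/f cells (-6.43). In fibroblasts all 3 were low in both genotypes, with Slurp1 at 0.448 FPKM in DKO and 0.395 FPKM in f/f fibroblasts. The other members of the 15 were Crabp1, a retinoic acid binding protein (1.28 in DKO against 186 in f/f), the CCN family protein Wisp2 (0.553 in DKO against 125 in f/f), Igfbp5 (0.773 in DKO against 129 in f/f) and Nccrp1 (0.419 in DKO against 87 in f/f). Of the 15, 10 were also at least 2-fold lower in DKO fibroblasts, against 5.29% of all genes there, and 5 (Msln, Aldh3a1, Slurp1, Prelp and Nccrp1) were within 2-fold. Genes below 1 FPKM in both fibroblast libraries, such as Slurp1, could not reach 2-fold on the (FPKM + 1) scale.

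The 15 genes furthest above f/f in DKO stood between 17.2 and 300.5 FPKM in DKO and between 0.175 and 17.5 FPKM in f/f. Gria4, an AMPA-type glutamate receptor subunit, stood at 55.2 FPKM in DKO against 0.175 FPKM in f/f cells, a log2 difference of 5.58. Itga7, the integrin subunit that binds laminin in muscle, stood at 300.5 FPKM in DKO against 7.06 FPKM in f/f cells, 42.6-fold higher in DKO (95% counting interval 39.5 to 45.9). Ankrd1, an ankyrin-repeat target of YAP, stood at 123 FPKM in DKO against 2.56 FPKM in f/f cells, 47.9-fold higher in DKO (95% counting interval 39.7 to 58.2). In f/f these 3 genes stood at 7.06 FPKM or less. Shox2, a homeobox gene that acts in limb and heart, stood at 71 FPKM in DKO against 5.47 FPKM in f/f cells. Crmp1, a protein of growing axons, stood at 18 FPKM in DKO against 0.745 FPKM in f/f cells, and Gdnf, a neurotrophic factor, at 18.6 FPKM in DKO against 0.838 FPKM in f/f cells. Sparcl1, a matricellular protein, stood at 17.2 FPKM in DKO against 0.218 FPKM in f/f cells and was below 1 FPKM in both fibroblast libraries. Ndrg1, which is induced by hypoxia and differentiation, stood at 240.1 FPKM in DKO against 17.5 FPKM in f/f cells, 13.7-fold higher in DKO (95% counting interval 13 to 14.5). Others among the 15 were Sfrp2 and Chac1, given with their pathways below, Ccdc37 (54.3 in DKO against 1.25 in f/f), Lurap1l (196 in DKO against 14.6 in f/f) and the zinc finger gene Zfp53 (57.3 in DKO against 4.12 in f/f). Of these 15 genes, 9 were also at least 2-fold higher in DKO fibroblasts, against 3.85% of all genes there, and none was 2-fold lower.

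Among the genes of the delivered factors Pou5f1 and Klf4 were lower and Myc higher in DKO, and Sox2, which may or may not be the Sox factor delivered, was lower. Pou5f1 and Sox2 had differences of -4.21 and -3.06 on the log2 scale, with the levels given above. Klf4 stood at 8.38 FPKM in DKO against 17.9 FPKM in f/f cells (-1.01), and at 21.9 FPKM in DKO and 18.8 FPKM in f/f fibroblasts. Myc stood at 105 FPKM in DKO against 30.7 FPKM in f/f cells (1.75), and the fibroblasts differed alike, at 106 FPKM in DKO and 26.4 FPKM in f/f fibroblasts. Of 15 core pluripotency genes 6 had a mean of at least 1 FPKM, 3 of which were lower and none higher in DKO, with a list median of -1.61 beside 0.04 for all genes. Only 3 of the 6 were at 1 FPKM or above in both libraries, and none of those was past 2-fold. Beside Pou5f1 and Sox2 the lower gene was L1td1, an RNA-binding protein gene of pluripotent cells, at 0.0145 FPKM in DKO against 4.19 FPKM in f/f cells. Trim28, a corepressor expressed in every cell, stood at 44.5 FPKM in DKO and 82.1 FPKM in f/f cells. The 9 members below the minimum included Sall4, Lin28a and Utf1, each listed at 0 in DKO and between 0.126 and 0.31 FPKM in f/f. The core list median rests on low values, being -0.28 with a minimum mean of 5 FPKM and -0.20 with no minimum. Of 16 naive genes 6 were compared, with Klf5 (31.2 in DKO against 3.15 in f/f) and Tbx3 (30.1 in DKO against 12.9 in f/f) higher, and Dppa5a and Klf4 lower. Of the primed epiblast genes Sox4, Dnmt3a and Cd24a were compared and none was past 2-fold.

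Epithelial genes were low in both day-20 libraries or higher in f/f, with Spint1 the exception past 2-fold. Of 12 compared genes of stratified epithelium 10 were at least 2-fold lower and none higher in DKO, with a median of -3.07. Of these 12 genes 1 was at 1 FPKM or above in both libraries, so the rest entered through f/f alone and had to be lower in DKO. Over the 19 genes found in the tables, with no minimum, all were lower in DKO by any amount and the median was -1.20, and with a pseudocount of 5 the median of the compared genes was -1.57. Krt14, the keratin of basal keratinocytes, stood at 0.154 FPKM in DKO against 55.9 FPKM in f/f cells, 362-fold lower in DKO (95% counting interval 166 to 988). Krt17 and Krt16, keratins of activated epidermis, stood at 0.113 in DKO against 28.2 in f/f and at 0.137 in DKO against 28.1 in f/f. Lgals7, a galectin of stratified epithelia, stood at 0.143 FPKM in DKO against 17.9 FPKM in f/f cells, and Sfn, the 14-3-3 protein stratifin, at 1.14 FPKM in DKO against 16.9 FPKM in f/f cells. Trp63, the master regulator of stratified epithelia, was low in both, at 0.868 FPKM in DKO and 1.43 FPKM in f/f cells. Of 9 compared simple epithelial genes 7 were lower and 1 higher, with a median of -2.09. Of these 9 genes too 1 was at 1 FPKM or above in both libraries, and the median was -0.83 with no minimum and -0.72 with a pseudocount of 5. Krt8 stood at 0.118 FPKM in DKO against 32 FPKM in f/f cells, 271-fold lower in DKO (95% counting interval 116 to 836). Cdh1 (E-cadherin), whose gain marks the mesenchymal-to-epithelial step, was listed at 0 in DKO and at 3.24 FPKM in f/f, which made it at least 112-fold lower in DKO when 3 reads are taken as the floor for the DKO library. Krt18, the partner keratin of Krt8, was likewise listed at 0 in DKO and 2.94 FPKM in f/f, at least 32.1-fold lower. Spint2, an epithelial protease inhibitor, stood at 0.117 FPKM in DKO against 8.84 FPKM in f/f cells, whereas its relative Spint1 stood at 6.24 FPKM in DKO against 0.65 FPKM in f/f cells and was higher in DKO. Krt14 was low in both fibroblast libraries, at 0.441 FPKM in DKO and 0.167 FPKM in f/f fibroblasts, so the f/f level at day 20 was the only high one among these 4 libraries. Epcam, an epithelial adhesion molecule, was listed at 0 in DKO and at 1.77 FPKM in f/f day-20 cells, far below the 76.1 FPKM in DKO and 125 FPKM in f/f ESC. The summed level of the 19 stratified genes found was 5.25 FPKM in DKO and 184 FPKM in f/f day-20 cells.

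**Figure D3:**
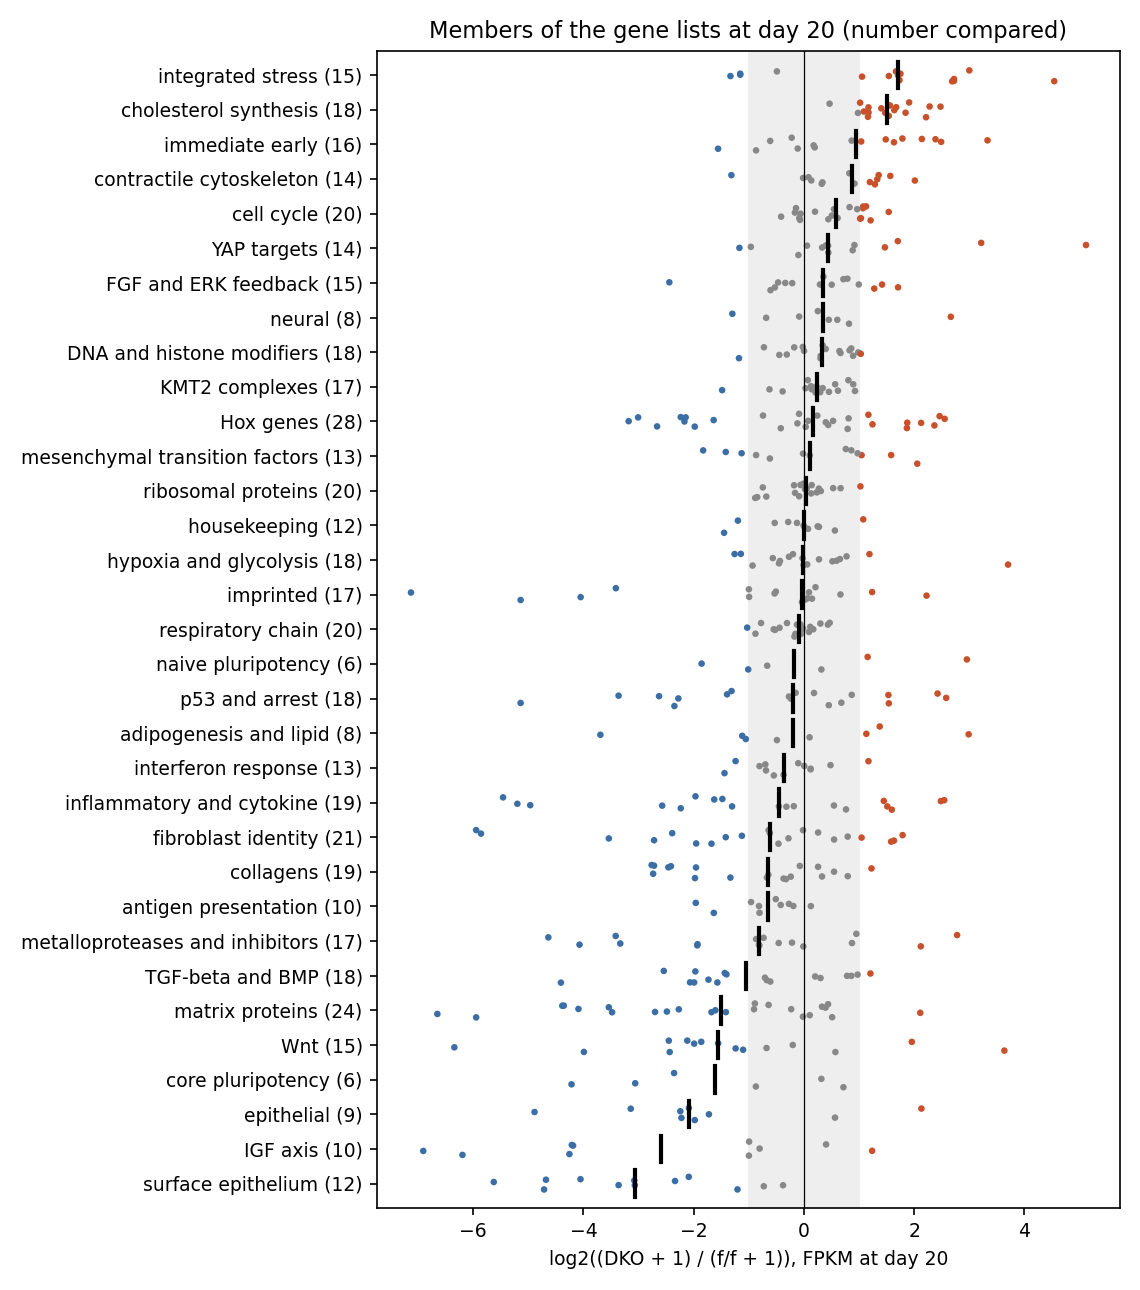
Difference at day 20, log2((DKO + 1)/(f/f + 1)) of FPKM, for each compared member of the 33 gene lists with at least 5 of them (number in brackets); points are genes, black bars list medians, and the grey band marks differences under 2-fold. Integrated stress and cholesterol synthesis lie highest and surface epithelium, IGF axis and epithelial genes lowest, while ribosomal, respiratory and housekeeping genes centre near 0.

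Fibroblast genes differed in both directions. Of 21 compared fibroblast identity genes 9 were lower and 4 higher in DKO, with a median of -0.62. The fibroblast pair shared most of the lower side, with 7 of these 9 genes also at least 2-fold lower in DKO there. None of the 4 higher genes was 2-fold higher in DKO fibroblasts, and the list median there was -0.46. Beside Thy1 and Lum, the lower ones included the matrix glycoprotein gene Fbln2 (52.6 in DKO against 621 in f/f) and Col1a1, the alpha-1 chain of type I collagen, at 921 FPKM in DKO against 6061 FPKM in f/f cells. Col1a2, the other chain of the same collagen, was not lower, at 3894 FPKM in DKO against 2663 FPKM in f/f cells (0.55), and Col3a1 stood at 4606 FPKM in DKO and 3851 FPKM in f/f cells. The higher ones were Vim, the intermediate filament vimentin (1809 in DKO against 875 in f/f), the transcription factor Snai2 (88 in DKO against 28.7 in f/f), the AP-1 member Fosl1 and the protease Fap. Snai1, the relative of Snai2 that represses Cdh1, went the other way, at 20.1 FPKM in DKO against 74 FPKM in f/f cells. Zeb2, another repressor of Cdh1, stood at 28.7 FPKM in DKO against 6.12 FPKM in f/f cells (2.06), so among 13 mesenchymal transition factors 3 were higher and 3 lower, with a median of 0.11.

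Matrix genes were lower more often than higher. Of 24 matrix protein genes 13 were lower and 1 higher in DKO, with a median of -1.51, against -0.09 in fibroblasts. Counting only the 22 genes at 1 FPKM or above in both libraries, 11 were lower and 1 higher. Spp1 (osteopontin), a secreted phosphoprotein, stood at 105 FPKM in DKO against 2158 FPKM in f/f cells. Aspn, the proteoglycan asporin, stood at 2.36 FPKM in DKO against 69.1 FPKM in f/f cells, and at 69.2 FPKM in DKO and 62.8 FPKM in f/f fibroblasts. Thbs1, the relative of Thbs2, stood at 246 FPKM in DKO against 1382 FPKM in f/f cells, with equal levels of 371 and 371 FPKM in DKO and f/f fibroblasts. Tnc (tenascin-C) was the 1 higher gene, at 318 FPKM in DKO against 72.7 FPKM in f/f cells. Of 19 collagen genes 8 were lower and 1 (Col5a3, 33.2 in DKO against 13.6 in f/f) higher. With both libraries at 1 FPKM or above, 17 collagen genes remained, 6 lower and 1 higher. Col12a1, a collagen of fibril surfaces, stood at 78.3 FPKM in DKO against 536 FPKM in f/f cells, and in the opposite order, at 569 FPKM in DKO and 98.6 FPKM in f/f fibroblasts. Among 17 proteases and inhibitors 6 were lower, led by the stromelysin Mmp3 (0.949 in DKO against 47.4 in f/f) and the collagenase Mmp13 (0.0639 in DKO against 16.9 in f/f). Both were below 1 FPKM in DKO, and among the 14 genes at 1 FPKM or above in both libraries 3 were lower and 2 higher. Of the 2 higher ones, Plau (urokinase) stood at 148 FPKM in DKO against 20.7 FPKM in f/f cells.

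Insulin-like growth factor genes held some of the widest gaps. Of 10 genes of this axis 5 were lower and 1 higher in DKO, with a median of -2.59, or -1.60 with a pseudocount of 5. Of the 7 genes at 1 FPKM or above in both libraries, 2 were lower and 1 higher. Most of the 2-fold calls were shared with fibroblasts, where 4 of the 5 lower genes were also at least 2-fold lower in DKO. The 1 higher gene was also 2-fold higher there, and the list median in fibroblasts was -0.70. Among the ligands, Igf1 stood at 0.12 FPKM in DKO against 19.7 FPKM in f/f cells, and Igf2, the fetal growth factor, at 506 FPKM in DKO against 214 FPKM in f/f cells. The ligands thus lay on opposite sides. Igf2 was higher in DKO among fibroblasts too, at 609 FPKM in DKO and 34.9 FPKM in f/f fibroblasts. The receptors Igf1r and Igf2r were within 2-fold, at 0.40 and -0.99 on the log2 scale. Of the binding proteins, which hold the ligands outside the cell, Igfbp4 stood at 34.3 FPKM in DKO against 672 FPKM in f/f cells, 19.6-fold lower in DKO (95% counting interval 18.6 to 20.6), and Igfbp6 at 0.63 FPKM in DKO against 28.7 FPKM in f/f cells. Igfbp3 stood at 57.2 FPKM in DKO and 100.4 FPKM in f/f cells and was within 2-fold. Of 17 compared imprinted genes 4 were lower (H19, Cdkn1c, Peg3 and Mest) and 2 higher (Igf2 and Peg10, 24.6 in DKO against 4.48 in f/f). H19 and Igf2 lie next to each other and are expressed from opposite parental copies. Cdkn1c, the maternally expressed cell cycle inhibitor p57, stood at 0.22 FPKM in DKO against 41.9 FPKM in f/f cells, 191-fold lower in DKO (95% counting interval 103 to 398). Peg3, a paternally expressed zinc finger gene, stood at 2.52 FPKM in DKO against 57.3 FPKM in f/f cells, and Mest at 3.48 FPKM in DKO against 46.6 FPKM in f/f cells. All 4 lower genes were also at least 2-fold lower in DKO fibroblasts. Snrpn, another imprinted gene, was listed at 0 in the day-20, fibroblast and ESC libraries and is uncertain.

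Genes of the Wnt, BMP and TGF-beta pathways were lower more often than higher. Of 15 compared Wnt genes 10 were lower and 2 higher in DKO, with a median of -1.55, or -0.89 with a pseudocount of 5. Of the 11 genes at 1 FPKM or above in both libraries, 6 were lower and 2 higher. Fibroblasts shared 5 of the 10 lower and 1 of the 2 higher genes past 2-fold, with a list median of -0.68. The receptor gene Fzd1 stood at 30.8 FPKM in DKO against 171 FPKM in f/f cells, 5.54-fold lower in DKO (95% counting interval 5.34 to 5.76). Axin2, a target and inhibitor of the pathway, stood at 1.88 FPKM in DKO against 7.45 FPKM in f/f cells, and Nkd1, another such inhibitor, at 0.0383 FPKM in DKO against 4.67 FPKM in f/f cells. Several of the lower genes are secreted antagonists, and Sfrp1 stood at 2.36 FPKM in DKO against 52.4 FPKM in f/f cells. Sfrp2, of the same family, went the other way at 106 FPKM in DKO against 7.61 FPKM in f/f cells, 13.9-fold higher in DKO (95% counting interval 12.6 to 15.5), as did Wisp1 (131 in DKO against 33 in f/f). Of 18 TGF-beta and BMP genes 9 were lower and 1 higher, with a median of -1.06, or -0.76 with a pseudocount of 5. Fibroblasts shared 4 of the 9 lower genes past 2-fold but not the 1 higher gene, with a list median of -0.45. The ligand gene Bmp4 stood at 3.79 FPKM in DKO against 17.8 FPKM in f/f cells. The receptor genes Tgfbr1 and Tgfbr2 stood at 3.9 in DKO against 12 in f/f and at 46.8 in DKO against 128 in f/f. The targets Id1, Id2 and Id3, inhibitors of bHLH factors, were all lower (-1.99, -2.06 and -1.57 on the log2 scale), and Id1 had a like difference in fibroblasts (-2.03). Ltbp2, a latent TGF-beta binding protein, stood at 3.47 FPKM in DKO against 93.9 FPKM in f/f cells, while the inhibitory Smad7 was the 1 higher gene at 14.8 FPKM in DKO against 5.86 FPKM in f/f cells. Of 15 FGF and ERK feedback genes 3 were higher and 1 was lower. The higher ones were the feedback inhibitor Spry2 (65.8 in DKO against 19.4 in f/f), the ligand Fgf10 (13.6 in DKO against 5.04 in f/f) and the factor Etv1 (10.1 in DKO against 3.15 in f/f), and the lower one was the receptor Fgfr2 (1.05 in DKO against 10.1 in f/f).

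Amino acid and stress response genes stood higher in DKO. In this pathway, kinases that sense unfolded protein or a lack of amino acids slow translation and raise the factor ATF4, which induces enzymes of serine, asparagine and glutathione metabolism. Of 15 compared genes 11 were higher and 3 lower, with a median of 1.71, against 0.69 in fibroblasts. Atf4 itself stood at 559 FPKM in DKO against 85.9 FPKM in f/f cells (2.69). Its partner Ddit3 (CHOP) stood at 162 FPKM in DKO against 23.7 FPKM in f/f cells, 6.84-fold higher in DKO (95% counting interval 6.23 to 7.52). Chac1, which degrades glutathione, stood at 55.5 FPKM in DKO against 1.43 FPKM in f/f cells, 38.9-fold higher in DKO (95% counting interval 29.8 to 51.7). Trib3, a pseudokinase that restrains the response, stood at 75.7 FPKM in DKO against 8.58 FPKM in f/f cells. The serine and one-carbon enzymes Phgdh, Psat1, Shmt2 and Mthfd2 were all higher, Phgdh at 247 FPKM in DKO against 73.4 FPKM in f/f cells and Mthfd2 at 149.8 FPKM in DKO against 21.8 FPKM in f/f cells. Asns, asparagine synthetase, stood at 181 FPKM in DKO against 52.9 FPKM in f/f cells, 3.41-fold higher in DKO (95% counting interval 3.26 to 3.57). The 3 lower genes were Ddit4 (48.6 in DKO against 109 in f/f), Nupr1 (76.6 in DKO against 172 in f/f) and Atf5 (58.8 in DKO against 149 in f/f). In fibroblasts 3 of the 11 were past 2-fold (Asns, Shmt2 and Mthfd2), and Chac1 stood at 16.7 FPKM in DKO and 9.37 FPKM in f/f fibroblasts.

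Start-site windows of these genes are shown because ATF4 and C/EBP proteins bind together to composite elements near the starts of several of them. The windows run over 300 bases, 250 before to 50 after the annotated start, on GRCm38.p6, and come from RefSeq, while the expression tables use mm9, per the submitters' processing notes. The letters searched were TGATGNAA, the core of this composite element, on both strands, and matches are in capitals, where a match on the opposite strand reads as its reverse complement. A match was held by 3.97% of 32851 such windows of mouse genes, or 4.51% of 27025 genes. Among 17 genes of the list, all with a window, 6 held one: Asns, Chac1, Fgf21, Nupr1, Slc7a11 and Trib3. They include the highest member, Chac1, as well as Nupr1, which was lower in DKO, and Fgf21, which was below the minimum level, so a match did not go with 1 direction. A match is a description of letters and not of binding.
Chac1, chr2:119350992-119351291, plus strand: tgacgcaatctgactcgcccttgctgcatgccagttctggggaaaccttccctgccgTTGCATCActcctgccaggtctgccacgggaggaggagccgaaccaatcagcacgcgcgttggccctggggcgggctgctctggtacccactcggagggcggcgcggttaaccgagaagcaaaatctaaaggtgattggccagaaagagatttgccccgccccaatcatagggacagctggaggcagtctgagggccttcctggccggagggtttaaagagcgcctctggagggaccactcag
Trib3, chr2:152344011-152344310, minus strand: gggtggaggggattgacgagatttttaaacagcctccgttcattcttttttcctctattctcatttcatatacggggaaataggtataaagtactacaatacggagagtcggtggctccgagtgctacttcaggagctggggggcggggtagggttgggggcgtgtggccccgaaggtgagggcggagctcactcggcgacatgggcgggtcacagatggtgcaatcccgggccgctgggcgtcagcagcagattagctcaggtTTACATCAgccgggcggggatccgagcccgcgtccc
Asns, chr6:7693160-7693459, minus strand: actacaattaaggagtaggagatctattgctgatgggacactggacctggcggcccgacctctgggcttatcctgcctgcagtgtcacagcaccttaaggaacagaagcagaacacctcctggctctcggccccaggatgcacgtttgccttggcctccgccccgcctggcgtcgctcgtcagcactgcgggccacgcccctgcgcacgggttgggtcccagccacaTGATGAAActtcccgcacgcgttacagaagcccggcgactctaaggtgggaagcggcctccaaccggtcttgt

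Sterol synthesis was higher almost throughout. Of 18 genes of cholesterol synthesis and uptake 16 were at least 2-fold higher and none lower in DKO, with a median of 1.51. The other 2, Hmgcs1 (0.98) and Dhcr7 (0.47), were also above 0. Srebf2, the transcription factor gene that drives the pathway, stood at 137 FPKM in DKO against 27.4 FPKM in f/f cells, 5-fold higher in DKO (95% counting interval 4.81 to 5.2). Sqle, squalene epoxidase, stood at 103 FPKM in DKO against 17.7 FPKM in f/f cells, 5.83-fold higher in DKO (95% counting interval 5.48 to 6.2). Fdps, which makes farnesyl diphosphate, stood at 153 FPKM in DKO against 32.1 FPKM in f/f cells, and Fdft1, which makes squalene, at 48.8 FPKM in DKO against 12.2 FPKM in f/f cells. The difference was also present in fibroblasts, where 12 of the 16 were past 2-fold and the list median was 1.27. The summed level of the 18 genes was 986 FPKM in DKO and 307 FPKM in f/f day-20 cells, against 1402 FPKM in DKO and 598 FPKM in f/f fibroblasts. Of 8 lipid and fat cell genes 3 were higher and 3 lower. Scd1, the stearoyl-CoA desaturase, stood at 118 FPKM in DKO against 14 FPKM in f/f cells, and Fasn, fatty acid synthase, at 84.3 FPKM in DKO against 31.9 FPKM in f/f cells. Fabp4, the fatty acid binding protein of fat cells, lay on the other side at 4.73 FPKM in DKO against 73 FPKM in f/f cells.

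Immediate early genes, YAP targets and contractile genes were higher in part. Of 16 immediate early genes 8 were higher and 1 lower in DKO, with a median of 0.95, or 0.20 with a mean of at least 5 FPKM. Among the 14 at 1 FPKM or above in both libraries, 6 were higher and 1 lower. The zinc finger factor Egr1 stood at 388 FPKM in DKO against 73.3 FPKM in f/f cells, 5.29-fold higher in DKO (95% counting interval 5.14 to 5.45), and its relative Egr2 at 7.88 FPKM in DKO against 0.58 FPKM in f/f cells. Atf3, a stress-induced factor, stood at 19 FPKM in DKO against 0.991 FPKM in f/f cells and was higher in DKO fibroblasts too (2.77). Fos stood at 48.7 FPKM in DKO and 56.9 FPKM in f/f cells, and Fosb was the 1 lower gene at 6.97 FPKM in DKO against 22.4 FPKM in f/f cells. Of 14 YAP targets 4 were higher and 1 lower, with a median of 0.44. Cyr61, a matricellular protein and classic target, stood at 1139 FPKM in DKO against 122 FPKM in f/f cells, 9.37-fold higher in DKO (95% counting interval 9.12 to 9.62). Ctgf, its close relative, stood at 112 FPKM in DKO against 33.6 FPKM in f/f cells, and in the opposite order, at 21.7 FPKM in DKO and 192 FPKM in f/f fibroblasts. Of 14 contractile genes 6 were higher and 1 lower. Acta2, smooth muscle actin, stood at 705 FPKM in DKO against 174 FPKM in f/f cells, but at 1575 FPKM in DKO and 1544 FPKM in f/f fibroblasts, so both day-20 libraries lay below both fibroblast libraries. Tagln (transgelin) stood at 513 FPKM in DKO against 203 FPKM in f/f cells, and Cnn2 (calponin 2) at 802 FPKM in DKO against 269.7 FPKM in f/f cells. Mylk, the myosin light chain kinase, was the 1 lower gene, at 2.31 FPKM in DKO against 7.24 FPKM in f/f cells.

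Some proliferation genes were higher in DKO, and p53 targets differed in both directions. Of 20 cell cycle genes 7 were higher and none lower, with a median of 0.58. The mitotic kinase gene Aurka stood at 18.8 FPKM in DKO against 5.81 FPKM in f/f cells, Mcm2 of the replicative helicase at 32.5 FPKM in DKO against 13.5 FPKM in f/f cells, and cyclin A2 (Ccna2) at 21.3 FPKM in DKO against 9.56 FPKM in f/f cells. Mki67, a general proliferation marker, was within 2-fold, at 13.3 FPKM in DKO and 15 FPKM in f/f cells, and was 30.4 FPKM in DKO and 47.3 FPKM in f/f fibroblasts. The summed level of the list was 436 FPKM in DKO and 287 FPKM in f/f day-20 cells, both below the 792 FPKM in DKO and 782 FPKM in f/f fibroblasts. Of 18 p53 and arrest genes 4 were higher and 7 lower. Among the 16 at 1 FPKM or above in both libraries, 4 were higher and 5 lower. Cdkn1a (p21), a p53 target that halts the cycle, stood at 21.7 FPKM in DKO against 109 FPKM in f/f cells, with nearly equal levels of 14.5 and 15.2 FPKM in DKO and f/f fibroblasts. Ccng1, another p53 target, stood at 11.2 FPKM in DKO against 74.2 FPKM in f/f cells, and Perp, a p53 target of epithelial junctions, at 0.45 FPKM in DKO against 13.9 FPKM in f/f cells. Cdkn2a, which encodes p16 and p19ARF and is a known barrier to reprogramming, stood at 239 FPKM in DKO against 43.7 FPKM in f/f cells. Gadd45a, a stress gene also driven by ATF4, stood at 159 FPKM in DKO against 25.8 FPKM in f/f cells, 6.18-fold higher in DKO (95% counting interval 5.73 to 6.68). Trp53 itself stood at 47.3 FPKM in DKO and 41.5 FPKM in f/f cells.

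Chemokine genes differed in both directions. Of 19 inflammatory genes 9 were lower and 5 higher in DKO, with a median of -0.45. Of the 10 genes at 1 FPKM or above in both libraries, 2 were lower and 3 higher. The neutrophil chemokine genes Cxcl1 and Cxcl5 stood at 0.18 in DKO against 50.8 in f/f and at 0.903 in DKO against 68.8 in f/f. Il1rl1, the receptor of interleukin-33, stood at 1.73 FPKM in DKO against 84.3 FPKM in f/f cells, and Il33 itself at 0.0492 FPKM in DKO against 3.93 FPKM in f/f cells. Il6 and Ptgs2 (COX-2) were higher, at 4.91 in DKO against 0.956 in f/f and 101 in DKO against 17.3 in f/f, and were so in fibroblasts as well (2.80 and 2.53 on the log2 scale). Ccl5, a T cell chemokine, stood at 7.48 FPKM in DKO against 0.452 FPKM in f/f cells, and in the opposite order at 9.3 FPKM in DKO and 44.7 FPKM in f/f fibroblasts. Of 13 interferon response genes 2 (Isg15 and Usp18) were lower and 1 (Ifit2) higher, with a median of -0.37, whereas 17 of the 19 compared in fibroblasts were lower there, with a median of -1.84. Isg15, a ubiquitin-like protein, stood at 2.2 FPKM in DKO against 6.56 FPKM in f/f cells, and at 2.39 FPKM in DKO and 79.2 FPKM in f/f fibroblasts. Among these 4 libraries the f/f fibroblasts had the high level. Of 10 antigen presentation genes 2 were lower, Psmb9 (0.106 in DKO against 2.43 in f/f) and H2-Ab1 (0.394 in DKO against 4.42 in f/f), both below 1 FPKM in DKO.

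The Hox genes, which encode positional identity along the body axis, divided by cluster. Of 28 compared genes 8 were higher and 8 lower in DKO, with a median of 0.16, or 0.81 with a mean of at least 5 FPKM. Of the 21 genes at 1 FPKM or above in both libraries, 8 were higher and 1 lower, so 7 of the 8 lower genes were below 1 FPKM in DKO. In the Hoxb cluster 6 of 8 genes were higher and none lower. Hoxb9 stood at 58.1 FPKM in DKO against 9.06 FPKM in f/f cells, 6.41-fold higher in DKO (95% counting interval 5.88 to 7), Hoxb8 at 27 FPKM in DKO against 4.41 FPKM in f/f cells, and Hoxb7 at 24.1 FPKM in DKO against 3.56 FPKM in f/f cells. In the Hoxd cluster 4 of 5 genes were lower and none higher, and Hoxd8 stood at 0.455 FPKM in DKO against 12.2 FPKM in f/f cells. Hoxd4 was listed at 0 in DKO and at 3.7 FPKM in f/f, at least 73.9-fold lower by the 3-read floor. In the Hoxa cluster the lower genes were Hoxa9, Hoxa10 and Hoxa11, the most posterior ones compared, with Hoxa10 at 0.285 FPKM in DKO against 7.14 FPKM in f/f cells and Hoxa11 at 0.112 FPKM in DKO against 3.91 FPKM in f/f cells, while the other 6 were within 2-fold. In the Hoxc cluster Hoxc4 (24.1 in DKO against 4.76 in f/f) and Hoxc8 (27.9 in DKO against 11.2 in f/f) were higher and Hoxc10 (0.402 in DKO against 10.3 in f/f) was lower. The 8 Hoxb genes were within 2-fold between the fibroblast genotypes. The summed Hoxb level was 159.5 FPKM in DKO and 36.4 FPKM in f/f day-20 cells, against 132 FPKM in DKO and 182 FPKM in f/f fibroblasts. The f/f day-20 library thus had the low sum. For Hoxd the sums were 3.58 FPKM in DKO and 26 FPKM in f/f day-20 cells, against 2.24 FPKM in DKO and 3.04 FPKM in f/f fibroblasts, so the f/f day-20 library was the high one. Hoxc10, Hoxa10 and Hoxa11 were the 3 Hox genes lower by 2-fold in DKO at both stages.

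**Figure D4:**
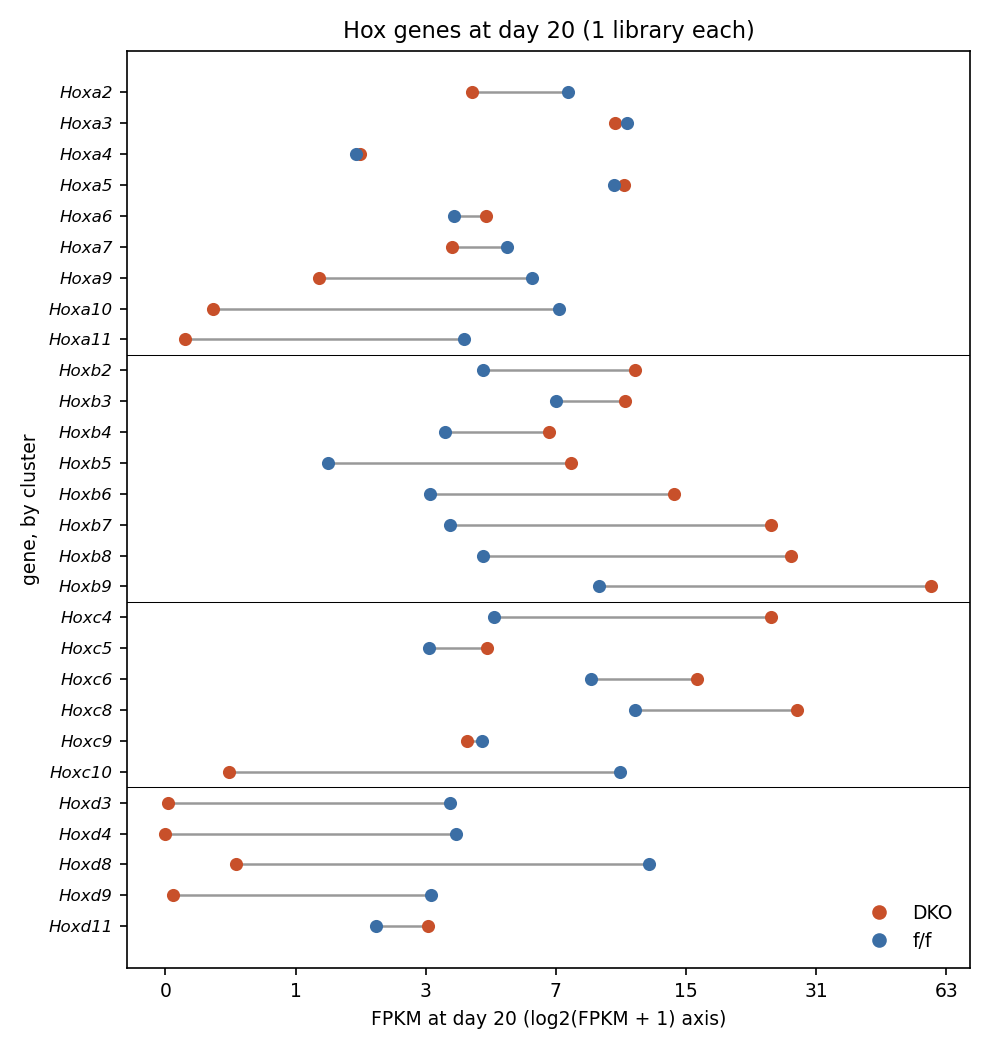
Levels of the 28 compared Hox genes at day 20 (FPKM on a log2(FPKM + 1) axis), DKO in orange and f/f in blue, 1 library each, ordered by cluster and position number. DKO lies right of f/f throughout Hoxb, and at least 2-fold left of it at Hoxa9 to Hoxa11, Hoxc10 and 4 of the 5 Hoxd genes.

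Other gene groups showed few differences or were hardly expressed. Of 17 genes of the KMT2 complexes 1, Pagr1a, which encodes a subunit particular to the MLL3 and MLL4 complexes, was lower, at 4.66 FPKM in DKO against 14.8 FPKM in f/f cells. Kdm6a (UTX), the demethylase of those complexes, stood at 9.99 FPKM in DKO against 5.28 FPKM in f/f cells (0.81). Among 18 other DNA and histone modifiers Dot1l (20.5 in DKO against 9.49 in f/f) was higher and Hdac1 (27.4 in DKO against 63.2 in f/f) lower. Of 18 hypoxia and glycolysis genes Ndrg1 and Pfkp were higher, and Bnip3 and Eno1 lower. Eno1 has near-identical copies and its value is uncertain. Of 20 respiratory chain genes 1 (Uqcrc2, 27.1 in DKO against 56.3 in f/f), and of 20 ribosomal protein genes 1 (Rpl8, 1438 in DKO against 705 in f/f, under 2-fold with upper-quartile or quantile scaling), were past 2-fold, with medians of -0.09 and 0.04. Housekeeping genes had a median of 0.00, with Actb higher at 2502 FPKM in DKO against 1185 FPKM in f/f cells (0.82 on the log2 scale with quantile scaling), and Tfrc (1.9 in DKO against 6.92 in f/f) and Polr2a (16.2 in DKO against 38.4 in f/f) lower. Genes of other cell types were mostly below the minimum level: 3 of 14 extraembryonic endoderm, 3 of 14 trophoblast, 2 of 16 germline, 4 of 14 muscle, 3 of 12 blood and 2 of 11 endothelial genes were compared. Within them Gata6, a factor of endoderm and mesenchyme, stood at 11.1 FPKM in DKO against 1.61 FPKM in f/f cells, Gata3 at 4.17 FPKM in DKO against 0.124 FPKM in f/f cells, and Prdm1 at 4.81 FPKM in DKO against 0.399 FPKM in f/f cells. The 2 compared endothelial genes, Eng (0.323 in DKO against 6.5 in f/f) and Tek (0.0727 in DKO against 2.65 in f/f), entered through f/f alone, and the median of that list was -0.20 with no minimum. Of 8 neural genes Stmn2, a tubulin regulator of neurons, was higher at 95.9 FPKM in DKO against 14.3 FPKM in f/f cells, and Nrcam was lower at 0.8 FPKM in DKO against 3.42 FPKM in f/f cells. In fibroblasts Stmn2 stood at 83.8 FPKM in DKO and 77.1 FPKM in f/f fibroblasts.

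The day-20 difference was set against the fibroblast difference, which uses other libraries. Over 12281 genes with a mean of at least 1 FPKM in the 4 libraries, 213 genes were at least 2-fold higher in DKO at both stages. They made up 21.0% of the 1015 day-20 genes and 46.6% of the 457 fibroblast genes that were higher. The 368 genes lower at both stages made up 28.7% of the 1283 lower day-20 genes and 58.0% of the 635 lower fibroblast genes. For all genes compared at each stage, the shares were 8.41% higher and 11.3% lower at day 20. In fibroblasts they were 3.85% higher and 5.29% lower. 1147 of the 2298 genes past 2-fold at day 20 (49.9%) were within 1.5-fold in fibroblasts, against 77.8% of all 12281 genes. A gene near 0 FPKM in both fibroblast libraries, such as Krt8 (0.0869 in DKO and 0.0383 in f/f), had to be within 1.5-fold there. This follows from the (FPKM + 1) scale, and such genes among the 1147 were not counted apart. Opposite directions past 2-fold at both stages were found in 25 genes higher at day 20 and 25 genes lower at day 20. Itga7 was among the widest shared differences, at 5.22 on the log2 scale at day 20 and 4.37 in fibroblasts. Aqp1 was lower at both, at -6.03 and -4.40. The day-20 cells were made from fibroblasts of these genotypes, so the 2 stages are not independent replicates.

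The day-20 difference minus the fibroblast difference was at least 1 on the log2 scale in 776 of the 12281 genes (6.32%) and at most -1 in 954 (7.77%). The most negative were Aldh3a1 (-6.59), Slurp1 (-6.48), Msln (-6.08), Krt14 (-5.93) and Prelp (-5.86). None of them differed by 2-fold between the fibroblast libraries on the (FPKM + 1) scale. Krt14 and Slurp1 could not, being below 1 FPKM in both fibroblast libraries. At day 20 the levels of these most negative genes ran between 0.154 and 1.66 FPKM in DKO and between 55.9 and 267 FPKM in f/f. The most positive were Ankrd1 (5.56), Ctgf (4.79), Ccl5 (4.70), Gria4 (4.37) and Sorbs2 (4.37). Ctgf, Ccl5 and Sorbs2, an adaptor of actin fibres (4.56 in DKO against 0.734 in f/f), were lower by 2-fold in DKO fibroblasts and higher at day 20. With 1 library in each of the 4 groups this double difference has no error estimate.

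**Figure D5:**
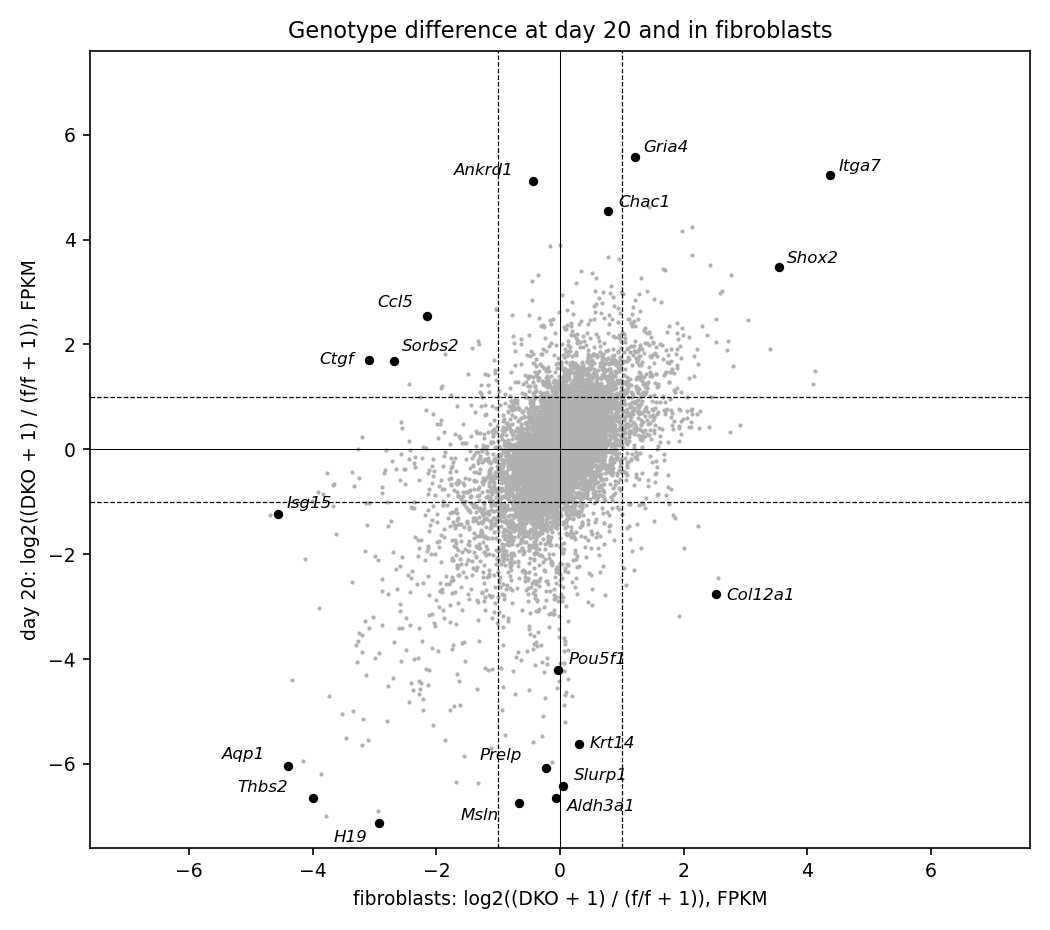
Difference between genotypes at day 20 (vertical) and in fibroblasts (horizontal), both log2((DKO + 1)/(f/f + 1)) of FPKM, for 12281 genes; dashed lines mark 2-fold. Itga7 and Shox2 are high on both axes and H19, Thbs2 and Aqp1 low on both. Aldh3a1, Slurp1, Msln and Krt14 lie within 2-fold in fibroblasts and below -5 at day 20.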

How the data were processed

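Poly(A) RNA was purified with Dynabeads and made into TruSeq libraries, per the labels' protocols. The deposited tables hold 1 FPKM value per gene, computed by the authors for each library separately. The submitters' processing notes name mm9, CASAVA 1.8.2 and SICER without their roles, and no source used here gives the aligner, gene annotation or strand setting. Values of overlapping and antisense genes are therefore uncertain. A further 4 deposited tables of ESC and embryoid bodies give each transcript a read count and an RPKM, per the file headers, with bedtools 2.16 and SICER 1.1 named in the submitters' processing notes. These served only for transcript lengths, and no level from them is printed. The other 24 samples, of chromatin and input, were not used here.

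FPKM values were used as deposited. Low FPKM values are whole multiples of what 1 read is worth for a gene's length, which gave a depth of 11366199 to 38264157 reads per library, with 90.1% to 91.8% of low genes on whole reads (tolerance 0.02). Reads of single genes, and the exact 95% Clopper-Pearson intervals of their ratios, were computed only for genes whose length came from a listed transcript. Where a library was listed at 0, 3 reads served as its floor. Intervals and floors cover counting error only. A difference is log2((DKO + 1)/(f/f + 1)), which understates the difference of low genes. A gene was kept where its mean over the libraries compared was at least 1 FPKM, and 2-fold was the limit for a call. With 1 library per group no test was possible.

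The genes and 42 gene lists were chosen with earlier results of these data known, and 705 of 706 entries matched a symbol in the tables (Sprr2a3 did not). Named genes were MLL3 and MLL4, the delivered factors, the 15 largest differences each way, the 4 widest members of each list, and the 5 widest differences each way between day 20 and fibroblasts. Other list members are named for their role, after their values were seen. A few genes that these rules name are not reported here. Start-site windows came from RefSeq (GRCm38.p6). Alternatives were the pseudocount, the minimum level, the fold limit and 3 further scalings. The steps were tested on simulated data and run in Python 3.11.15 with numpy 2.4.6, pandas 2.3.3, scipy 1.17.1 and matplotlib 3.10.9.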

Additional observations from a re-analysis of the deposited data

Results flagged for a closer look

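Genes with a genotype difference past 2-fold in opposite directions at day 20 and in fibroblasts, and named in the report, were looked at again. Col12a1, the fibril-associated collagen, had a log2 difference of -2.76 at day 20 and 2.52 in fibroblasts, or -5.28 for day 20 minus fibroblasts. For Ctgf, a YAP target, the values were 1.70 at day 20 and -3.09 in fibroblasts, or 4.79. For the chemokine Ccl5 they were 2.55 and -2.15, or 4.70. For Sorbs2, an actin adaptor, they were 1.68 and -2.69, or 4.37. Each rests on 1 library per genotype and stage, and the difference between stages was not tested.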

How the results depend on the processing

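No paired analysis was possible because each genotype had 1 library at day 20 and in fibroblasts, and no replicate could be left out. No list median or named gene past 2-fold turned its direction under the alternatives run. The median difference over all genes, 0.04, was -0.02 with no filter on low values. It ranged between 0.01 and 0.08 under the other alternatives. Of the counts over genes, 42 stayed within 1.5 times and 19 did not. At day 20, the 1043 genes higher in DKO became 509 with a pseudocount of 5 and 161 with a 4-fold limit. The 1398 lower genes became 622 with a pseudocount of 5, 778 with a mean of at least 5 FPKM, 824 with at least 1 FPKM in both libraries (chosen after seeing the data) and 438 with a 4-fold limit. The 12 lists with a median past 2-fold became 7 with a pseudocount of 5. The 581 genes past 2-fold in the same direction at day 20 and in fibroblasts became 915 and 215 with pseudocounts of 0.1 and 5, and 373 with a mean of at least 5 FPKM. With a pseudocount of 5, the fibroblast count of 1094 became 449, the ESC count of 684 became 265, the embryoid body count of 837 became 302, and the 1730 genes whose difference differed between day 20 and fibroblasts became 781. With a mean of at least 5 FPKM these became 622, 403, 457 and 1072, and a pseudocount of 0.1 gave 1029 in ESC. Among list medians 275 stayed on their side of 2-fold, 10 no longer passed it and 6 newly passed it, and among values of named genes 841, 32 and 7 did. The medians of the surface epithelium, epithelial, core pluripotency and endothelial lists moved by over 1.5-fold with no minimum, to -1.20, -0.83, -0.20 and -0.20. Those of the germline and sex-linked lists moved likewise, from 0.99 to -0.06 and from -3.69 to -2.97. With a mean of at least 5 FPKM, the immediate early median moved to 0.20, Hox to 0.81, muscle to 0.85 and trophoblast from 0.18 to -0.76. Under that minimum core pluripotency moved to -0.28, the delivered factors to -1.01, epithelial to -4.89, surface epithelium to -4.36 and sex-linked to -4.45. The 3 scalings moved the median difference of all genes by at most 0.03. Depth limits the low genes, whose intervals are wide, and nothing here bears on the spread between cultures.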
